A study of Rattus norvegicus with 50 samples.

Results

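Lungs of rats that had inhaled nickel subsulfide (Ni3S2) at 0.15 mg/m3 for 4 weeks were compared with lungs of unexposed rats taken at the same time. The comparison holds 10 of the 50 arrays of the study, 5 exposed and 5 control, chosen by the concentration and time in their labels. All animals were male Fischer 344 rats, received at 7 to 8 weeks of age. The exposed rats breathed the aerosol, which carried about 0.11 mg of nickel per m3, with exposures of 6 hours on 20 days in all. The control rats were held at a target concentration of 0 mg/m3 for the same 4 weeks. The other groups of the study breathed 0.04, 0.08 or 0.60 mg/m3 for 4 weeks, or any of these concentrations for 1 week, again with 5 arrays each. A group had 13 animals, 8 of them for expression and lung nickel, and the 5 with the best RNA went on arrays, 1 animal per array, so the arrays are not a random draw from each group. The labels describe the material both as bronchoalveolar cells and as tissue of the distal airway from the right caudal lobe. It is a mixture of cell types, so a larger number of cells of a type and more RNA per cell cannot be told apart in any value below.

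Nickel subsulfide dissolves slowly in water and is a lung carcinogen in rats on long inhalation. Particles that reach the distal lung are taken up by macrophages, which release chemokines and proteases, and by the epithelium, where club cells carry much of the lung's metabolism of foreign compounds. Nickel ions can also displace iron in the prolyl hydroxylases that mark hypoxia-inducible factors for breakdown, and metallothioneins bind metal ions in the cell.

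Expression is given as log2 intensity, on which 1 unit is a doubling, for 13438 genes with 1 probe set each. Values of the 5 arrays of a group are listed in the order of their replicate numbers, errors of group means are standard deviations (n = 5), and errors of changes are standard errors of the model. Genes with an adjusted p under 0.05 in limma are termed called. Correlations between arrays of these groups were at least 0.992. Of the 25 arrays of 4 weeks, the exposed arrays lay at 7.25 to 18.1 on the first principal component (37% of the variance). The controls lay at -4.86 to 6.30 and the 0.60 mg/m3 arrays at 18.9 to 28.8. The 0.04 mg/m3 arrays lay at -27.6 to -14.3 and the 0.08 mg/m3 arrays at -42.3 to -1.63, so this component did not follow the order of concentration. The lung markers Scgb1a1 and Sftpa1 were present at like levels in both groups, while the club cell markers Cyp2f4 and Cyp4b1 fell, as given below. The club cell secretoglobin Scgb1a1 was at 13.63 ± 0.08 in controls and 13.60 ± 0.04 in exposed lungs, and the surfactant protein gene Sftpa1 at 12.71 ± 0.04 and 12.77 ± 0.13. Neighbouring tissues also gave signal. The mean of 21 heart muscle genes lay 0.50, 0.07, -0.67, -0.37 and 0.46 from the control mean on the control arrays, and 0.00, 0.74, 0.05, 0.13 and 0.26 on the exposed arrays. For 15 adipocyte genes the range was -0.44 to 0.53 in controls and -0.54 to 1.33 in exposed lungs, with exposed array 2 highest. Their part in the results was not tested, and 0 of the genes of either list were called.

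After 4 weeks at 0.15 mg/m3 the lungs showed rises in most genes of mitosis and cholesterol synthesis and in some genes of inflammation, and falls in some genes of foreign-compound metabolism. Of 13438 genes 470 were called (3.5%), 258 of them higher (1.92%) and 212 lower (1.58%). The rises were larger than the falls: 152 genes rose and 48 fell by at least 1.5-fold, together 1.49% of genes. The median change was 0.66 among genes called higher and -0.44 among genes called lower, beside -0.01 over all genes. All 5 exposed arrays lay above all 5 controls in 231 of the 258 and below them in 182 of the 212, beside 4.61% and 4.49% of all genes tested. The genes were called on these same arrays, so their separation is no independent support. The calls closest to the threshold were Tmem132c (0.57, adjusted p = 0.0494) and Tnnt1 (-0.45, adjusted p = 0.0499), and the nearest genes outside it were Nefh (0.43) and Tpmt (0.57), both with adjusted p = 0.0509. The spread was estimated from all 50 arrays. A fit of the 10 arrays alone called 1101 genes, 453 of the 470 among them. Omission of 1 array at a time left 341 to 401 calls, which held 334 to 387 of the 470. Without control array 4 the lower calls were 138 in place of 212.

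**Figure D1:**
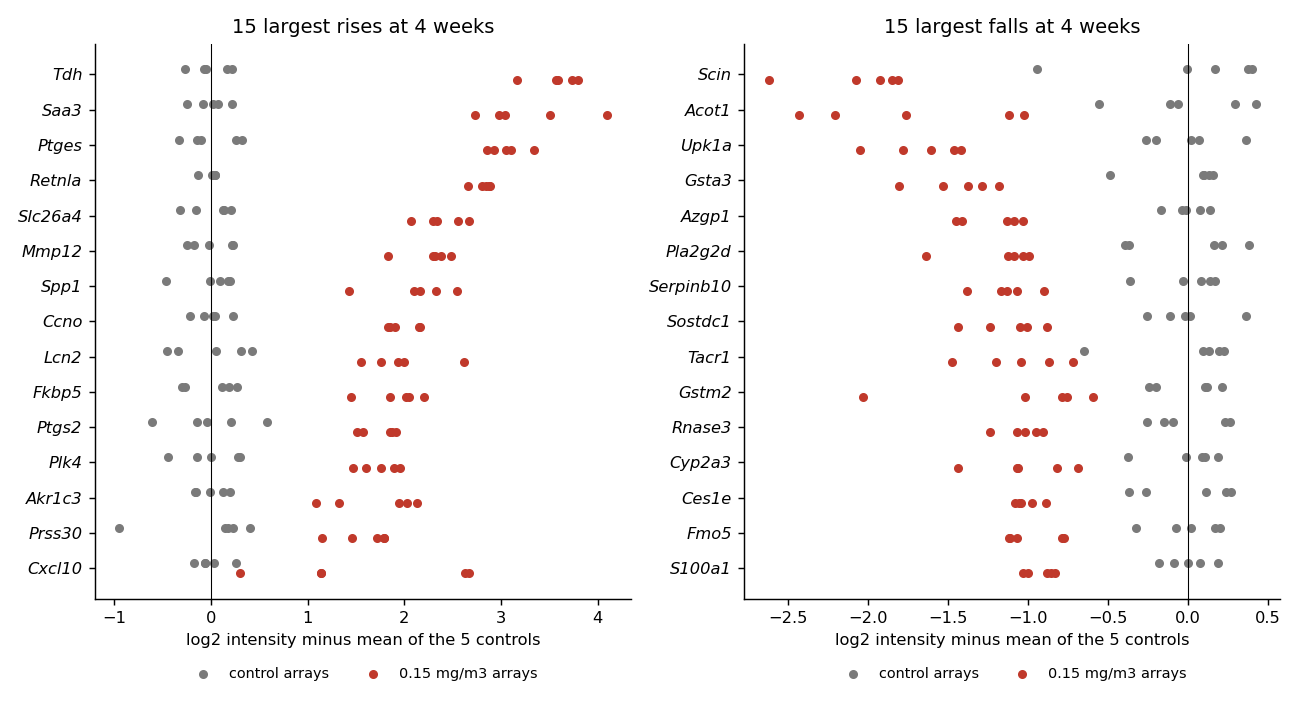
Log2 intensity of each array minus the mean of the 5 control arrays, for the 15 genes that rose most (left) and the 15 that fell most (right) after 4 weeks at 0.15 mg/m3; each point is 1 array, control arrays in grey and exposed arrays in red. The 5 exposed values of Retnla lie close together, while those of Cxcl10 spread widely (4.36 to 6.72 before the control mean is taken off).

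Among genes with an established name, the largest rise was that of Tdh, which encodes threonine dehydrogenase, a mitochondrial enzyme that starts the breakdown of threonine to glycine and acetyl-CoA. Tdh read 3.83, 3.55, 3.57, 3.35 and 3.78 on the control arrays and 7.42, 6.79, 7.35, 7.19 and 7.21 on the exposed arrays. The groups were far apart, and the exposed arrays differed among themselves little more than the controls did. The rise was 11.9-fold (3.57 ± 0.21, adjusted p = 7.33e-17). Gcat, the ligase that acts after Tdh in the same pathway, was at 4.60 ± 0.14 in controls and 4.69 ± 0.18 in exposed lungs, a difference of 0.09 ± 0.23 (adjusted p = 0.927). Of 27 measured genes of threonine, serine and glycine metabolism, 2 rose and 3 fell. The methyltransferase gene Gnmt, whose enzyme uses glycine, fell (-0.91 ± 0.22, adjusted p = 0.00798). The other rise, in the serine synthesis gene Psat1 (0.46 ± 0.13), lost its call in 8 of the 10 fits that left out 1 array. The median of the list was 0.04.

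Some genes of secreted defence and of macrophages rose strongly. The acute-phase gene Saa3 read 4.29, 4.13, 3.96, 4.23 and 4.43 in controls and 7.19, 8.30, 7.72, 6.93 and 7.25 in exposed lungs, and exposed array 2 was highest. It rose 9.64-fold (3.27 ± 0.30, adjusted p = 1.52e-10). Lcn2, whose product binds bacterial iron carriers, rose 3.92-fold (1.97 ± 0.25, adjusted p = 2.33e-07). Of 25 acute-phase and secreted defence genes 4 rose and 0 fell in limma (8 and 0 at an unadjusted p under 0.05, which 6.53% of all genes passed higher and 7.46% lower), with a median of 0.07. The other members called, Orm1 (0.58 ± 0.15) and Saa4 (0.41 ± 0.11), each lost the call without certain single arrays, Orm1 in 4 and Saa4 in 7 of 10 such fits. Without exposed array 2, 3 or control array 4 the list had 2 called members. Complement genes had 4 of 20 higher and 0 lower (10 and 0 unadjusted). The central component C3 rose from 11.14 ± 0.07 to 11.55 ± 0.07 (0.41 ± 0.08, adjusted p = 0.00114), and Cfb, which forms the alternative pathway convertase with it, rose by 0.34 ± 0.06 (adjusted p = 0.000139). The fourth member, the terminal component gene C6 (0.66 ± 0.18), lost the call in 5 of 10 fits without 1 array. The complement protease gene Cfi rose by 0.92 ± 0.21 (adjusted p = 0.00458), with control array 1 at 8.58 and the other controls between 9.22 and 9.41. C1qa and C1qb, subunits of the classical starter C1q, differed by 0.27 ± 0.12 and 0.23 ± 0.16 (adjusted p = 0.298 and 0.582).

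Genes linked to type 2 immunity rose in part. Retnla, a secreted marker of alternatively activated macrophages that the airway epithelium also makes, read 9.27, 9.24, 9.09, 9.25 and 9.27 in controls and 11.88, 12.11, 12.02, 12.10 and 12.07 in exposed lungs. It rose 7.02-fold (2.81 ± 0.27, adjusted p = 2.71e-10), with a standard deviation of 0.09 among the exposed arrays. The acidic chitinase gene Chia rose from 11.88 ± 0.17 to 12.80 ± 0.07 (0.92 ± 0.08, adjusted p = 2.66e-11), and the chitinase-like Chi3l1 from 9.70 ± 0.11 to 10.51 ± 0.13 (0.81 ± 0.13, adjusted p = 2.03e-05). Of 14 genes of this list 5 rose and 0 fell (6 and 1 unadjusted), with a median of 0.19. The T helper 2 attractant Ccl17 rose by 1.38 ± 0.24 (adjusted p = 0.000115). Its relative Ccl22 rose by 0.61 ± 0.15 (adjusted p = 0.0105), a call lost without exposed array 2 or 4 or control array 4 (at most adjusted p = 0.0648). Mrc1, the mannose receptor gene often used as a marker of this macrophage state, differed by 0.14 ± 0.16 (adjusted p = 0.797).

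Some macrophage genes of tissue remodelling rose. Spp1 encodes osteopontin, a secreted matrix and cytokine-like protein, and read 5.24, 5.14, 4.58, 5.22 and 5.04 in controls and 7.20, 7.37, 7.59, 6.47 and 7.14 in exposed lungs. It rose 4.32-fold (2.11 ± 0.30, adjusted p = 3.99e-06). The macrophage elastase gene Mmp12 read 6.79, 6.39, 6.31, 6.55 and 6.79 in controls and 9.05, 8.86, 8.94, 8.88 and 8.39 in exposed lungs. It rose 4.79-fold (2.26 ± 0.27, adjusted p = 1.26e-07), and the 2 sets of arrays did not overlap for either gene. The inhibitory myeloid receptor gene Lilrb4 rose by 1.35 ± 0.23 (adjusted p = 8.69e-05) and galectin-3, Lgals3, by 0.36 ± 0.06 (adjusted p = 1.85e-05). Of 18 genes of osteopontin-producing and lipid-laden macrophages 5 rose and 0 fell (8 and 1 unadjusted), and the median was 0.23. The fifth, the apolipoprotein gene Apoc1 (0.96 ± 0.25), rested on few arrays: it was 0.64 with adjusted p = 0.134 without exposed array 2, and the call was also lost without control array 2 and in the fit of the 10 arrays. Gpnmb, often listed with Spp1, differed by 0.52 ± 0.20 (adjusted p = 0.176). Of 12 genes that mark resident alveolar macrophages 1 rose, Chi3l1, and 1 fell. The gene that fell was the ribonuclease Rnase3, which read 11.21, 11.54, 11.56, 11.05 and 11.15 in controls and 10.40, 10.06, 10.29, 10.23 and 10.35 in exposed lungs (-1.04 ± 0.20, adjusted p = 0.00062). It is also a member of the list of mast cells and eosinophils, where it was the only one of 17 called.

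Both inducible enzymes of prostaglandin E2 synthesis rose. Ptgs2, the inducible cyclooxygenase gene, read 4.73, 5.92, 5.54, 5.19 and 5.29 in controls and 7.20, 6.84, 6.90, 7.18 and 7.25 in exposed lungs, a rise of 1.74 ± 0.25 (adjusted p = 3.62e-06). Ptges, the inducible prostaglandin E synthase gene, read 3.97, 4.56, 4.16, 4.19 and 4.62 in controls and 7.22, 7.35, 7.15, 7.40 and 7.64 in exposed lungs, and rose 8.31-fold (3.05 ± 0.23, adjusted p = 5.74e-13). The aldo-keto reductase gene Akr1c3, whose enzyme reduces prostaglandins and steroids, read 3.66, 3.37, 3.52, 3.36 and 3.72 in controls and 4.85, 5.47, 5.55, 5.65 and 4.62 in exposed lungs. It rose 3.25-fold (1.70 ± 0.20, adjusted p = 7.07e-08), with exposed arrays 1 and 5 below the other three. Other eicosanoid genes that were called fell. The constitutive cyclooxygenase gene Ptgs1 fell by 0.48 ± 0.10 (adjusted p = 0.00174), the 5-lipoxygenase gene Alox5 changed by -0.56 ± 0.10 (adjusted p = 0.000132), and the secreted phospholipase gene Pla2g2d by -1.17 ± 0.20 (adjusted p = 0.000126). Of 24 genes of this list 2 rose and 3 fell.

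Some chemokine genes of several families rose. Of 30 measured 8 rose and 0 fell (11 and 3 unadjusted), with a median of 0.20. They were the ligands of Cxcr3, Cxcl10 and Cxcl11, the monocyte attractants Ccl2 and Ccl7, the neutrophil attractants Cxcl1 and Cxcl2, and Ccl17 and Ccl22. Cxcl1 rose from 8.30 ± 0.09 to 9.54 ± 0.16 (1.24 ± 0.14, adjusted p = 3.47e-08), a rise with little spread. Ccl2 read 6.30, 6.61, 6.51, 5.98 and 6.17 in controls and 7.07, 8.25, 8.08, 7.18 and 7.52 in exposed lungs (1.31 ± 0.23, adjusted p = 0.000132). Cxcl10 read 4.32, 3.88, 4.09, 3.99 and 4.00 in controls and 5.20, 6.72, 6.69, 4.36 and 5.20 in exposed lungs (1.58 ± 0.29, adjusted p = 0.000304). The exposed lungs were unequal: arrays 2 and 3 were highest in Cxcl10, Cxcl11, Ccl2 and Ccl7, and array 4 was lowest in Cxcl10, Cxcl11 and Ccl7, close to the controls. Ccl3, another monocyte and neutrophil chemokine, differed by 0.28 ± 0.19 (adjusted p = 0.568). An NF-kB site, searched by its usual degenerate letters on both strands, was in 4 of 7 promoters of called chemokine genes (57.1%), in 7 of 23 of all chemokine genes measured (30.4%), in 4.88% of genes measured and in 4.16% of all promoters. The promoter of Cxcl10 from RefSeq (chr14:15988816-15989115, plus strand, build GRCr8, 250 bases before to 50 after the start) is shown for its match, in capitals.
Cxcl10: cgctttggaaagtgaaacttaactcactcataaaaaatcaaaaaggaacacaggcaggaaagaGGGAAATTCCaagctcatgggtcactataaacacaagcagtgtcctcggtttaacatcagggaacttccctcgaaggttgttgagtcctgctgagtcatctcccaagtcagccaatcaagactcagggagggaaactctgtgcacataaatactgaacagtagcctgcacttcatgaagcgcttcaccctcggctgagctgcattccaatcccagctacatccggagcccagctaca

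The same unequal pattern ran through the interferon-induced genes. The mean of the 24 measured genes of this list lay 0.15, 0.05, -0.02, -0.06 and -0.11 from the control mean on the control arrays and 0.29, 0.72, 0.93, -0.09 and 0.40 on the exposed arrays. Exposed arrays 2 and 3 were far above the controls, and exposed array 4 was within their range. Mx1, an antiviral GTPase gene, read 6.71, 6.95, 6.70, 6.46 and 6.53 in controls and 7.24, 8.26, 8.44, 6.68 and 7.50 in exposed lungs (0.95 ± 0.27, adjusted p = 0.0296). In all 3 genes rose, Cxcl10, Mx1 and Usp18, and 0 fell (16 and 0 unadjusted), with a median of 0.43. Omission of 1 array moved that count between 1, without exposed array 2 or 3 or control array 3, 4 or 5, and 8, without exposed array 4. Mx1 lost its call in 6 of the 10 fits without 1 array (at most adjusted p = 0.158) and Usp18 (0.71 ± 0.21) in 8 (at most adjusted p = 0.197). In the fit of the 10 arrays alone, adjusted p was 0.0515 for Mx1 and 0.085 for Usp18. Genes of TNF, interleukin 1 and NF-kB signalling had 5 of 21 higher and 1 lower, with 3 higher when exposed array 3 was left out. The decoy receptor gene Il1r2 rose by 1.12 ± 0.19 (adjusted p = 0.000126), and the mitochondrial superoxide dismutase gene Sod2 by 0.37 ± 0.08 (adjusted p = 0.00223). Nfkbia, which encodes the NF-kB inhibitor, fell from 10.46 ± 0.17 to 9.78 ± 0.07 (-0.68 ± 0.10, adjusted p = 1.46e-05). Tnf itself rose by 0.61 ± 0.17 (adjusted p = 0.0249), a call lost in 6 of 10 fits without 1 array (at most adjusted p = 0.102).

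Most genes of mitosis rose. Of 49 measured 32 rose and 0 fell in limma (40 and 0 unadjusted), with a median of 0.80 beside -0.01 over all genes, and 37 had all exposed arrays above all controls. The mean over the list lay -0.02, 0.02, -0.10, 0.03 and 0.07 from the control mean on the control arrays and 0.54, 0.82, 0.85, 0.62 and 0.81 on the exposed arrays, so no exposed lung overlapped the controls. The largest rise was in Plk4, the kinase gene that starts centriole duplication, which read 5.02, 5.77, 5.47, 5.32 and 5.75 in controls and 6.93, 7.22, 7.36, 7.07 and 7.42 in exposed lungs (1.74 ± 0.30, adjusted p = 0.000139). Top2a, the topoisomerase that untangles sister chromatids, read 4.86, 5.18, 4.80, 4.84 and 5.24 in controls and 5.99, 6.49, 6.53, 6.17 and 6.34 in exposed lungs (1.32 ± 0.22, adjusted p = 8.69e-05). The proliferation marker Mki67 rose by 1.13 ± 0.25 (adjusted p = 0.00279), the mitotic kinase Cdk1 by 1.21 ± 0.20, its partner cyclin gene Ccnb1 by 0.87 ± 0.20 and the checkpoint kinase gene Bub1 by 1.20 ± 0.22. With 1 array left out at a time, 29 to 32 members were called higher.

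Genes of the step before, entry into S phase and DNA replication, were called in smaller number. Of 42 measured 6 rose and 2 fell (18 and 2 unadjusted). The calls of Cdt1 and Uhrf1, 2 of the 6, were lost in 8 and 9 of 10 fits without 1 array, and 1 gene was lower in place of 2 without exposed array 3, 4 or 5 or control array 1, 3 or 4. The median of the list was 0.23. The ribonucleotide reductase subunit gene Rrm2 rose by 0.99 ± 0.22 (adjusted p = 0.00272), cyclin E2, Ccne2, by 0.82 ± 0.18 (adjusted p = 0.0031) and the replicative helicase gene Mcm5 by 0.80 ± 0.17 (adjusted p = 0.00185). Its fellow subunits Mcm2 and Mcm3 differed by 0.25 ± 0.13 and 0.29 ± 0.14 (adjusted p = 0.369 and 0.333). Gmnn, which encodes the replication inhibitor geminin, fell from 8.34 ± 0.19 to 7.71 ± 0.15 (-0.63 ± 0.15, adjusted p = 0.00648). Ccno, a cyclin-like gene needed to make the many centrioles of ciliated cells, read 6.41, 6.67, 6.64, 6.85 and 6.55 in controls and 8.47, 8.53, 8.77, 8.45 and 8.79 in exposed lungs and rose 3.94-fold (1.98 ± 0.24, adjusted p = 1.41e-07). None of 14 ciliated cell genes was called, and 0 passed an unadjusted p of 0.05. Their regulator Foxj1 was at 9.54 ± 0.20 and 9.62 ± 0.15, and the dynein gene Dnai1 at 7.84 ± 0.21 and 7.68 ± 0.14.

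The promoters of the mitosis genes are shown because the genes rose together and because promoters of this class are known to carry a CCAAT box and a cell cycle homology region. Promoters here are 250 bases before to 50 after the start of a gene, taken from RefSeq on build GRCr8, and 28 of the 32 called mitosis genes were matched to one. The letters CCAAT and TTTGAA were searched on both strands, where they read ATTGG and TTCAAA in reverse, and matches of the pair can share an end base. TTTGAA was in 20 of these 28 promoters (71.4%), in 30 of the 43 of all mitosis genes measured (69.8%), in 12.3% of the promoters of the 11057 genes measured and in 18.1% of all 27457 promoters. CCAAT was in 21 of the 28 (75%), beside 37.4% of genes measured and 37.7% of all promoters. Both were in 16 of the 28, beside 5.04% of genes measured, and in 24 of the 43. The promoters of Ect2, which drives the closing of the cleavage furrow (chr2:111966577-111966876, minus strand, all coordinates GRCr8), and of Cks2, a partner of mitotic kinases (chr17:13727470-13727769, minus strand), follow with both motifs in capitals.
Ect2: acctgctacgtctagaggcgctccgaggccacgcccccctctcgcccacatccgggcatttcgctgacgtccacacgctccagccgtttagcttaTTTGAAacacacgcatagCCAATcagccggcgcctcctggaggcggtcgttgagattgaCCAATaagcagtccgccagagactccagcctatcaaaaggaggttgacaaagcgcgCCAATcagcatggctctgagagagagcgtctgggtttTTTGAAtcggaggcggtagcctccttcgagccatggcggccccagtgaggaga
Cks2: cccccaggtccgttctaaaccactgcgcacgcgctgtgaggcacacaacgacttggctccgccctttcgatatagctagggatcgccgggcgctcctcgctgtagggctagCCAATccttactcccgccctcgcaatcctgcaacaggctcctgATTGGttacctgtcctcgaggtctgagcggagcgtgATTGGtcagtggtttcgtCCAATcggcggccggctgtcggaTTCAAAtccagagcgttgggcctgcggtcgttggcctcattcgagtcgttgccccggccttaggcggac

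**Figure D2:**
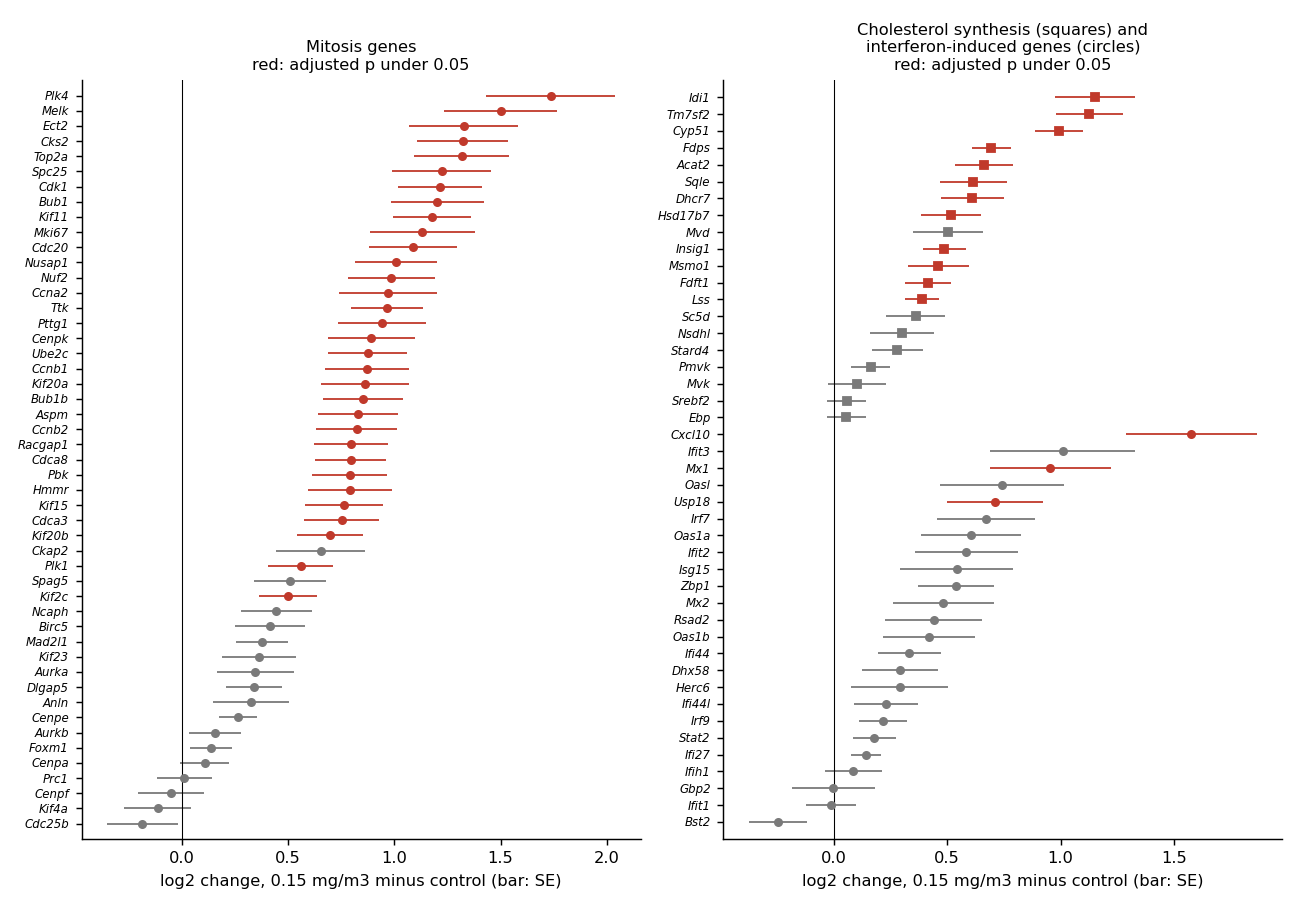
Log2 change at 0.15 mg/m3 against control after 4 weeks for every measured gene of the mitosis list (left) and of the cholesterol synthesis and interferon-induced lists (right); points are changes, bars standard errors, and red marks an adjusted p under 0.05. In the mitosis list 32 of 49 points are red, in the cholesterol list 12 of 20, and in the interferon list 3 of 24.

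Cholesterol synthesis was the other list of which most members rose. Of 20 measured 12 rose and 0 fell (16 and 0 unadjusted), with a median of 0.48, and all 20 had a positive change. Cyp51, the lanosterol demethylase gene, read 8.75, 8.84, 8.69, 9.03 and 8.89 in controls and 9.78, 9.82, 9.90, 9.92 and 9.73 in exposed lungs (0.99 ± 0.11, adjusted p = 6.16e-09). Idi1, which makes the isoprenoid building block, read 8.44, 9.17, 8.64, 8.92 and 9.03 in controls and 10.12, 9.61, 10.07, 10.06 and 10.10 in exposed lungs, with exposed array 2 lowest (1.15 ± 0.18, adjusted p = 1.46e-05). The late sterol reductase gene Tm7sf2 rose by 1.13 ± 0.15 (adjusted p = 4.63e-07), farnesyl diphosphate synthase, Fdps, by 0.70 ± 0.09 (adjusted p = 2.38e-07) and squalene epoxidase, Sqle, by 0.62 ± 0.15 (adjusted p = 0.00793). Insig1, whose protein holds back the sterol-sensing pathway and is itself induced by it, rose by 0.49 ± 0.10. The mevalonate kinase genes Mvk and Pmvk differed by 0.10 ± 0.13 and 0.16 ± 0.08 (adjusted p = 0.817 and 0.386). The sterol response element TCACNCCAC, searched on both strands, was in 0 of the 10 promoters matched to called members, in 0 of 16 of all members measured, in 1.11% of genes measured and in 1.13% of all promoters, which says only that these letters are not in those windows. Of 33 genes of fatty acid metabolism 0 rose and 2 fell (0 and 4 unadjusted), both thioesterases. Acot1, the cytosolic one, read 8.06, 8.41, 8.54, 8.00 and 7.56 in controls and 7.00, 6.36, 7.09, 5.91 and 5.68 in exposed lungs (-1.71 ± 0.28, adjusted p = 6.33e-05). Acot2, its mitochondrial neighbour, fell from 8.48 ± 0.04 to 7.99 ± 0.14 (-0.49 ± 0.09, adjusted p = 0.000504). The sequences of these paralogs are close, so their probe sets may share signal.

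Some stress genes of the amino acid and unfolded protein responses rose. Of 37 measured 10 rose and 1 fell, Ddit4 (19 and 1 unadjusted), with a median of 0.18. The amino acid transporter gene Slc7a5 rose by 0.76 ± 0.14 (adjusted p = 0.000304), Trib3, a pseudokinase that restrains the response, by 0.72 ± 0.15 (adjusted p = 0.00148), and the stress protein gene Nupr1 by 0.65 ± 0.15 (adjusted p = 0.00376). Genes of folding in the endoplasmic reticulum were among them, with Dnajb9 at 0.48 ± 0.08 and Manf at 0.40 ± 0.07. The transcription factor genes Atf4 and Atf3 differed by 0.08 ± 0.06 and 0.32 ± 0.11 (adjusted p = 0.626 and 0.109). Of 17 cytosolic tRNA synthetases 1 rose and 0 fell (8 and 0 unadjusted), Yars1 (0.25 ± 0.07), a call lost in 6 of 10 fits without 1 array. The amino acid response element TGATGNAA, searched on both strands, was in 2 of 8 promoters of called stress genes and in 5 of 32 of all stress genes measured, beside 2.26% of genes measured and 3.82% of all promoters. That of Trib3 (chr3:161275484-161275783, minus strand) is shown because it had the larger change of the 2 called stress genes with a match. Its match lies just before the start. The match is in capitals and is the motif read on the other strand.
Trib3: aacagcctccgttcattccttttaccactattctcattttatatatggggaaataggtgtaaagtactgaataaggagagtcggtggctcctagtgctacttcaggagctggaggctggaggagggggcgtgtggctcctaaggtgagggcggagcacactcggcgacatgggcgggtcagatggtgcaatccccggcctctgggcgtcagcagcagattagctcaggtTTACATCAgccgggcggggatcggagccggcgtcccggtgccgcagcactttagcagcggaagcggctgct

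Targets of the hypoxia-inducible factors rose in part. Of 25 measured 8 rose and 1 fell (10 and 1 unadjusted), with a median of 0.14. The lactate exporter gene Slc16a3 read 6.09, 5.64, 5.89, 5.60 and 5.68 in controls and 7.03, 7.17, 7.40, 6.96 and 7.01 in exposed lungs (1.33 ± 0.18, adjusted p = 9.15e-07). Egln3, a prolyl hydroxylase gene that hypoxia induces, rose by 1.05 ± 0.24 (adjusted p = 0.00371), Ankrd37 by 0.92 ± 0.11 (adjusted p = 1.94e-07) and the transferrin receptor gene Tfrc by 0.68 ± 0.13 (adjusted p = 0.000711). The member that fell, Ddit4, an inhibitor of the growth regulator mTORC1, went from 9.29 ± 0.21 to 8.48 ± 0.24 (-0.80 ± 0.17, adjusted p = 0.00225). Egln1, the main prolyl hydroxylase gene, was at 8.23 ± 0.12 and 8.24 ± 0.08. Of 19 glycolysis genes 5 rose and 0 fell (8 and 0 unadjusted). The aldolase gene Aldoc rose by 1.31 ± 0.14 (adjusted p = 5.92e-09) and lactate dehydrogenase, Ldha, by 0.36 ± 0.07 (adjusted p = 0.00102). The glucose transporters Slc2a1 and Slc2a3 differed by 0.14 ± 0.12 and 0.07 ± 0.09 (adjusted p = 0.698 and 0.829). The core ACGTG, searched on both strands, was in 4 of 7 promoters of called hypoxia targets (57.1%), in 13 of 22 of all hypoxia targets measured (59.1%), in 24.2% of genes measured and in 19.7% of all promoters.

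Some metal-binding genes rose, and oxidant-response genes moved both ways with more falls than rises. Metallothionein Mt2A read 7.63, 7.17, 7.31, 7.02 and 7.17 in controls and 8.08, 8.40, 8.01, 8.02 and 7.79 in exposed lungs (0.80 ± 0.17, adjusted p = 0.00225), and Mt1 differed by 0.27 ± 0.13 (adjusted p = 0.344). Of 23 metallothioneins and metal transporters 2 rose, Mt2A and Tfrc, and 0 fell (6 and 2 unadjusted). Among 25 targets of NRF2, the regulator of antioxidant genes, 2 rose and 5 fell (2 and 9 unadjusted), with a median of -0.18. The largest fall of the list was that of Gsta3, which is given below and counted in other lists as well. Haem oxygenase, Hmox1, read 8.36, 7.82, 7.90, 8.09 and 8.28 in controls and 9.20, 9.19, 9.29, 9.18 and 9.01 in exposed lungs (1.08 ± 0.12, adjusted p = 4.79e-08). The quinone reductase gene Nqo1 went the other way, from 10.29, 10.31, 10.46, 10.31 and 10.10 in controls to 9.51, 9.56, 9.65, 9.58 and 9.70 in exposed lungs (-0.69 ± 0.08, adjusted p = 5.55e-08). The exposed and control arrays did not overlap for Hmox1 or Nqo1. The aldo-keto reductase gene Akr1b8 fell by 0.56 ± 0.13 (adjusted p = 0.00397). The cystine transporter gene Slc7a11, the other member that rose (0.64 ± 0.17), lost the call without control array 1 or exposed array 4 (at most adjusted p = 0.0721).

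Some genes of foreign-compound metabolism fell. Of 30 cytochrome P450 and other such genes 9 fell and 0 rose (13 and 0 unadjusted), with a median of -0.26. The mean over the list lay -0.06, 0.03, 0.02, -0.02 and 0.03 from the control mean on the control arrays and -0.29, -0.27, -0.28, -0.27 and -0.23 on the exposed arrays, with little spread. Cyp2a3, a P450 of the rat airway, read 11.56, 12.03, 12.12, 11.93 and 12.05 in controls and 10.50, 10.88, 11.25, 10.87 and 11.12 in exposed lungs (-1.02 ± 0.18, adjusted p = 0.000202). The club cell P450 gene Cyp2f4 read 11.83, 12.21, 12.07, 12.20 and 12.14 in controls and 11.07, 11.03, 11.28, 11.21 and 11.41 in exposed lungs (-0.89 ± 0.11, adjusted p = 1.47e-07). The flavin monooxygenase gene Fmo5 fell from 8.00 ± 0.21 to 7.03 ± 0.18 (-0.97 ± 0.15, adjusted p = 1.05e-05). Cyp1a1 and Cyp1b1, targets of the aryl hydrocarbon receptor, differed by -0.01 ± 0.12 and 0.08 ± 0.13 (adjusted p = 0.986 and 0.871). Omission of exposed array 2 left 6 members lower in place of 9, and Cyp2s1 (-0.53 ± 0.16) and the epoxide hydrolase gene Ephx1 (-0.51 ± 0.14) lost the call in 9 and 4 of 10 such fits. Of 18 glutathione transferases 4 fell and 0 rose (10 and 0 unadjusted), with a median of -0.23. Gsta3 read 8.50, 9.14, 9.08, 9.11 and 9.08 in controls and 7.18, 7.80, 7.70, 7.61 and 7.46 in exposed lungs and fell 2.7-fold (-1.43 ± 0.18, adjusted p = 2.33e-07), with control array 1 below the other controls. Gstm2 fell from 9.41 ± 0.21 to 8.37 ± 0.58 (-1.04 ± 0.17, adjusted p = 6.71e-05), with exposed array 2 at 7.38 and the other exposed arrays between 8.39 and 8.82. Glutathione transferases of a class are near copies, so signal may be shared between them.

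Club cells are the site of several of these enzymes, and their genes changed unequally. Of 15 club cell genes 5 fell and 1 rose (6 and 2 unadjusted). The 5 were Gsta3, Cyp2a3, Cyp2f4, Cyp4b1 (-0.41 ± 0.08, adjusted p = 0.000438) and the lipid-binding Sec14l3 (-0.22 ± 0.06, adjusted p = 0.0221), whose call was lost without exposed array 2, control array 2 or control array 3. The secretoglobin gene Scgb1a1, a marker of the cell, and its relative Scgb3a1 differed by -0.03 ± 0.04 and 0.11 ± 0.09 (adjusted p = 0.859 and 0.686). The airway mucin gene Muc5b read 9.01, 10.78, 10.76, 10.56 and 10.58 in controls and 11.36, 11.72, 11.58, 11.66 and 11.81 in exposed lungs, with control array 1 far below the rest (1.29 ± 0.29, adjusted p = 0.00448). Without that array the change was 0.96 (adjusted p = 0.0447). Muc5ac, the mucin of goblet cells, differed by 0.14 ± 0.11 (adjusted p = 0.652), and of 15 goblet cell and mucin genes 1 rose and 0 fell (2 and 0 unadjusted). Slc26a4 encodes pendrin, an anion exchanger of inflamed airways, and read 5.82, 5.47, 5.30, 5.76 and 5.75 in controls and 7.96, 8.18, 8.29, 7.92 and 7.69 in exposed lungs. It rose 5.24-fold (2.39 ± 0.24, adjusted p = 9.8e-10). The sodium channel subunit gene Scnn1b fell from 7.35 ± 0.09 to 6.72 ± 0.15 (-0.63 ± 0.15, adjusted p = 0.00542), and of 20 airway ion transport genes 2 rose and 2 fell. The other members, the chloride channel gene Cftr (0.46 ± 0.14) and the water channel gene Aqp1 (-0.36 ± 0.10), lost the call in 9 and 3 of 10 fits without 1 array.

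Few genes of the alveolar epithelium were called. Of 20 alveolar type 2 genes 1 rose, Chi3l1, and 1 fell, the transcription factor gene Etv5 (-0.55 ± 0.16). Of 17 type 1 genes 0 rose and 1 fell (0 and 1 unadjusted), the growth factor binding protein gene Igfbp2 (-0.55 ± 0.16). Etv5 lost the call in 8 and Igfbp2 in 7 of 10 fits without 1 array. The type 1 markers Ager and Hopx differed by -0.21 ± 0.13 and 0.07 ± 0.07 (adjusted p = 0.516 and 0.783). The keratins Krt8 and Krt18, which rise in injured alveolar epithelium, differed by 0.06 ± 0.09 and -0.04 ± 0.11 (adjusted p = 0.842 and 0.942). Of 41 matrix proteases, inhibitors and collagens 2 rose, Mmp12 and Mmp7, and 0 fell (4 and 0 unadjusted). Mmp7, a protease of injured epithelium (0.51 ± 0.15, adjusted p = 0.0439), lost its call in 8 of 10 fits without 1 array and in the fit of the 10 arrays. Of 32 lysosomal and lipid-handling genes 1 rose and 0 fell (6 and 0 unadjusted). It was the cathepsin gene Ctsd (0.41 ± 0.12), lost in 7 of 10 such fits, and the cathepsin genes Ctsa and Ctsb differed by 0.07 ± 0.07 and 0.09 ± 0.06.

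Several other genes fell strongly. Scin, an actin-severing protein gene, read 9.24, 10.56, 10.59, 10.36 and 10.19 in controls and 7.57, 8.38, 8.26, 8.11 and 8.34 in exposed lungs. It fell 4.17-fold (-2.06 ± 0.24, adjusted p = 6.27e-08), and even the lowest control, array 1, lay above every exposed array. The uroplakin gene Upk1a fell 3.17-fold from 5.78 ± 0.25 to 4.12 ± 0.26 (-1.66 ± 0.21, adjusted p = 2.94e-07). Azgp1, a zinc-binding secreted glycoprotein gene, fell 2.33-fold (-1.22 ± 0.14, adjusted p = 7.61e-08) and the serine protease inhibitor gene Serpinb10 2.19-fold (-1.13 ± 0.25, adjusted p = 0.00401). Sostdc1, an antagonist of BMP and Wnt signals, fell by 1.12 (adjusted p = 2.59e-05), and Tacr1, the receptor gene for substance P, by 1.06 (adjusted p = 0.00116). The carboxylesterase gene Ces1e changed by -1.01 ± 0.23 (adjusted p = 0.00554) and the calcium-binding S100a1 by -0.92 ± 0.14 (adjusted p = 1.95e-05).

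Genes that answer to glucocorticoids, the clock and acute stimuli were called in both directions. Fkbp5, a co-chaperone gene that glucocorticoids induce strongly, read 6.34, 6.38, 6.75, 6.83 and 6.91 in controls and 8.69, 8.84, 8.66, 8.10 and 8.50 in exposed lungs (1.91 ± 0.17, adjusted p = 1.08e-10). Of 17 glucocorticoid-responsive genes 4 rose and 3 fell, with a median of -0.02. Tsc22d3, another direct target, differed by 0.29 ± 0.10 (adjusted p = 0.0906), and the growth factor receptor inhibitor gene Errfi1 fell from 10.12 ± 0.18 to 9.64 ± 0.17 (-0.47 ± 0.11, adjusted p = 0.00353). Clock genes had 3 of 17 higher and 2 lower. The activator Npas2 fell by 0.61 ± 0.13 (adjusted p = 0.00238), and Bhlhe41, a repressor of the clock, rose by 0.42 ± 0.09 (adjusted p = 0.00399). Of the other members, Nr1d1 (0.44 ± 0.12) lost the call in 5 of 10 fits without 1 array, and Bmal1 (-0.46 ± 0.12) without exposed array 4. Without exposed array 4 or 5 or control array 3 the fallen glucocorticoid-responsive genes were 1 in place of 3. The calls lost were those of Cebpd (-0.53 ± 0.15) and Dusp1 (-0.39 ± 0.10). A second probe set of Dusp1 was called lower in limma (-0.73 ± 0.17, adjusted p = 0.00777). For Cebpd another probe set was called lower (-0.83 ± 0.19, adjusted p = 0.00585) and a further one differed by -0.02 ± 0.09. The labels and series text do not state the hour at which lungs were taken. Of 24 immediate early genes 1 rose, Junb (0.58 ± 0.12, adjusted p = 0.00174), and 4 fell, among them Jun (-0.43 ± 0.08, adjusted p = 0.000304), the mRNA decay factor gene Zfp36 (-0.66 ± 0.12, adjusted p = 0.000234) and the endothelial factor gene Klf2 (-0.51 ± 0.09, adjusted p = 0.000341).

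Genes often studied after nickel exposure changed in small number. Of 46 DNA repair genes 2 rose, the checkpoint kinase Chek1 (0.50 ± 0.13) and the histone gene H2ax (0.39 ± 0.11), and 0 fell (6 and 2 unadjusted). The call of Chek1 was lost without exposed array 1 or control array 2 (at most adjusted p = 0.0704), and that of H2ax in 5 of 10 such fits. Brca1 and Brca2, which act in repair by recombination, differed by 0.01 ± 0.07 and 0.12 ± 0.11. Of 21 p53 targets 0 rose and 1 fell, Ephx1 (1 and 5 unadjusted), with Cdkn1a and Mdm2 at -0.30 ± 0.15 and -0.06 ± 0.12 (adjusted p = 0.381 and 0.903). Of 19 genes in a list of histone demethylases, methyltransferases of histones and DNA, and related genes, 2 rose and 0 fell (3 and 1 unadjusted). They were Ezh2 (0.58 ± 0.16, adjusted p = 0.0317), lost in 8 of 10 fits without 1 array, and Uhrf1 (0.55 ± 0.16, adjusted p = 0.049), lost in 9. Uhrf1, a related gene and neither kind of enzyme, is also counted above with DNA replication.

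Markers of most other cell types were not called at 0.15 mg/m3. In limma 0 members were called among 18 B and plasma cell genes (2 higher and 1 lower at an unadjusted p under 0.05), 18 NK and cytotoxic cell genes (1 and 7), 23 endothelial genes (1 and 4), 19 smooth muscle genes (0 and 0), 21 heart muscle genes (1 and 0), 15 adipocyte genes (0 and 0), 8 mesothelial genes (1 and 0) and 5 red blood cell genes (0 and 0). The NK and cytotoxic cell genes had a median of -0.24 and the endothelial genes one of -0.17, beside -0.01 over all genes. No member was called either among 18 genes of retinoid metabolism (0 and 3), 34 proteasome subunits (1 and 3) and 33 subunits of oxidative phosphorylation (0 and 0). Neutrophil genes had 2 of 13 higher (4 higher and 1 lower unadjusted), Lcn2 and Il1r2, which other cells also express. The mean over the neutrophil list lay -0.18 to 0.30 from the control mean on the control arrays and 0.21 to 0.51 on the exposed arrays. The neutrophil markers S100a8 and S100a9 differed by 0.46 ± 0.26 and 0.54 ± 0.21 (adjusted p = 0.449 and 0.193). T cell genes had 2 of 25 higher (4 higher and 0 lower unadjusted). They were the interleukin 7 receptor gene Il7r (0.89 ± 0.18, adjusted p = 0.00102) and Icos (0.69 ± 0.20), lost in 7 of 10 fits without 1 array. The T cell receptor subunit gene Cd3e differed by 0.36 ± 0.26 (adjusted p = 0.595). Clec9a, a marker of dendritic cells that take up dead cells, rose by 0.87 ± 0.21 (adjusted p = 0.00707). It was the 1 called gene of 17 of MHC class II and dendritic cells (4 higher and 0 lower unadjusted), with 2 called without exposed array 4.

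Against the next higher concentration, 0.60 mg/m3, the lungs at 0.15 mg/m3 lay lower in 17 of 24 interferon-induced genes and higher in 6 of 30 genes of foreign-compound metabolism. This comparison does not use the controls. Of 13438 genes 385 differed (2.87%), 257 higher at 0.60 mg/m3 (1.91%) and 128 lower (0.953%). Of the 258 genes that rose at 0.15 mg/m3, 46 were further from control at 0.60 mg/m3 and 5 nearer (95 and 14 at an unadjusted p under 0.05, which 8.03% of all genes passed higher and 4.99% lower). Of the 212 that fell, 23 were further and 0 nearer (68 and 8 unadjusted). The arrays of 0.15 mg/m3 on which these genes were called enter this comparison too. Spp1 was higher at 0.60 mg/m3 by 2.45 ± 0.30 (adjusted p = 3.87e-07), Lilrb4 by 1.82 ± 0.23, Ccl2 by 1.69 ± 0.23, Ccl7 by 1.64 ± 0.27 and Mmp12 by 1.60 ± 0.27. Among the falls, Rnase3 differed by -1.33 ± 0.20, Gsta3 by -1.29 ± 0.18, Serpinb10 by -1.24 ± 0.25 and Cyp2a3 by -0.95 ± 0.18. Acot1 differed by -1.14 ± 0.28 (adjusted p = 0.0133), a call lost without array 1 or 3 of 0.15 mg/m3 or array 2 of 0.60 mg/m3. Omission of 1 array left 249 to 359 calls, and the 249 came without array 5 of 0.60 mg/m3. The 257 higher genes were 157 without that array, 166 without array 1 of 0.15 mg/m3 and 169 without array 3 of 0.60 mg/m3.

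The 5 genes called nearer to control at 0.60 mg/m3 follow. Akr1c3 was at 5.23 ± 0.47 at 0.15 mg/m3, and its change against control was 1.70 there and -0.12 at 0.60 mg/m3. The direct difference was -1.82 ± 0.20 (adjusted p = 2.25e-08). Tdh was raised by 3.57 at 0.15 mg/m3 and by 1.76 at 0.60 mg/m3, with a direct difference of -1.81 ± 0.21 (adjusted p = 1.01e-07). The other genes were the T cell inhibitor Vtcn1 (-0.52 ± 0.15, adjusted p = 0.0498), Fam167a (-0.40 ± 0.11, adjusted p = 0.0344) and the mitotic brake Wee1 (-0.29 ± 0.07, adjusted p = 0.0118). Single arrays decided these: the call was lost in 9 of 10 fits for Vtcn1, in 7 for Fam167a and without array 3 of 0.60 mg/m3 for Wee1. Their calls against control were lost as well, in 4 of 10 fits for Vtcn1, in 7 for Fam167a and in 8 for Wee1. For Akr1c3 and Tdh it held in every such fit. Ptges differed by 0.44 ± 0.23 between the concentrations (95% interval -0.03 to 0.91) and Ptgs2 by 0.05 ± 0.25 (-0.45 to 0.55), so neither was shown to be higher at 0.60 mg/m3. The corresponding value for Ccno was 0.04 ± 0.24 (-0.45 to 0.52).

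**Figure D3:**
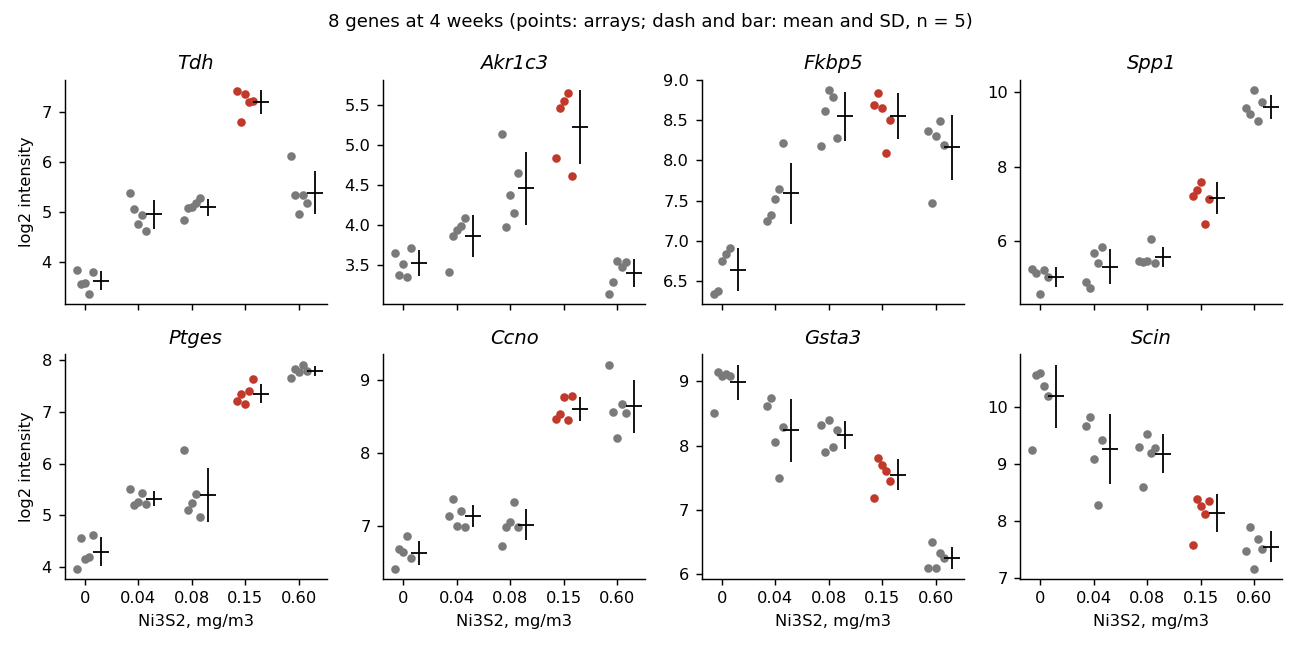
Log2 intensity of 8 genes in the 5 groups of 4 weeks against the Ni3S2 concentration in mg/m3; points are arrays, the dash and bar are the mean and SD (n = 5), and red marks 0.15 mg/m3. Tdh and Akr1c3 are highest at 0.15 mg/m3, Spp1 is highest at 0.60 mg/m3, and Fkbp5 has about the same level at 0.08 and 0.15 mg/m3.

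The gene lists divided in the same comparison. Of 24 interferon-induced genes 17 were higher at 0.60 than at 0.15 mg/m3 and 0 lower, and their median against control was 0.43 at 0.15 and 1.22 at 0.60 mg/m3. Mx1 differed by 1.28 ± 0.27 (adjusted p = 0.00203). Of the 49 mitosis genes 0 were called in either direction in limma (2 higher and 2 lower at an unadjusted p under 0.05), with medians of 0.80 and 0.90. Of the 20 cholesterol synthesis genes 0 were called (4 higher and 0 lower unadjusted), with medians of 0.48 and 0.53. Top2a differed by 0.32 ± 0.22 (adjusted p = 0.601), and Idi1 by 0.03 ± 0.18 (adjusted p = 0.983). Of 30 P450 and other xenobiotic metabolism genes 6 were lower at 0.60 mg/m3 and 0 higher, with medians of -0.26 and -0.47. Among the oxidant-response genes, Nqo1 was lower still (-0.40 ± 0.08, adjusted p = 0.00157), and Hmox1 differed by 0.31 ± 0.12 (adjusted p = 0.221).

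Against the next lower concentration, 0.08 mg/m3, many more genes differed, and mitosis and cholesterol genes were among them. Of 13438 genes 2494 were called (18.6%), 1082 higher at 0.15 mg/m3 (8.05%) and 1412 lower (10.5%). The split between higher and lower calls moved with the scaling, from 43.4% higher to 62.3% when arrays were centred on their medians, 52.3% after quantile normalization and 54.3% in a fit of these 10 arrays. Mitosis genes were higher in 35 of 49 and lower in 0, cholesterol synthesis genes in 13 of 20 and 0, and interferon-induced genes in 11 of 24 and 0. Against control the median of the mitosis genes was -0.02 at 0.04, 0.09 at 0.08 and 0.80 at 0.15 mg/m3. That of the cholesterol synthesis genes was 0.01, 0.09 and 0.48 in the same order. Top2a was higher than at 0.08 mg/m3 by 1.00 ± 0.22 (adjusted p = 0.0015), Cyp51 by 0.86 ± 0.11 (adjusted p = 3.69e-07), Saa3 by 2.95 ± 0.30 (adjusted p = 6.2e-09) and Ptgs2 by 1.94 ± 0.25 (adjusted p = 8.33e-07). Fkbp5 and Mt2A were not called: they differed by 0.01 ± 0.17 (adjusted p = 0.983) and 0.16 ± 0.17 (adjusted p = 0.572). The change of Fkbp5 against control was 0.95, 1.91, 1.91 and 1.52 in the order of rising concentration, and these changes share the same control arrays.

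Muscle and fat markers differed strongly in that comparison. Heart muscle genes had a median of 1.46 against control at 0.08 mg/m3 and 0.26 at 0.15 mg/m3, and 10 of 21 were lower at 0.15 than at 0.08 mg/m3. For smooth muscle the medians were 0.82 and -0.06, with 14 of 19 genes lower, and for adipocytes 0.87 and 0.18, with 5 of 15 lower. Of the 33 subunits of oxidative phosphorylation 16 were lower. Without the genes of the muscle, adipocyte, B cell and T cell lists 2439 genes were called. The part of other tissue in the remaining calls was not tested. Skeletal muscle genes had medians of 1.65 and 0.02, with 7 of 15 lower. Array 1 of 0.08 mg/m3 stood apart from the other 24 arrays of 4 weeks, at 60.1 on the second principal component (22.4% of the variance) where the others lay between -20.1 and 8.29, and 2764 genes were called without it. Array 4 of 0.08 mg/m3 weighed most: 1394 genes were called without it, 592 higher and 802 lower.

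**Figure D4:**
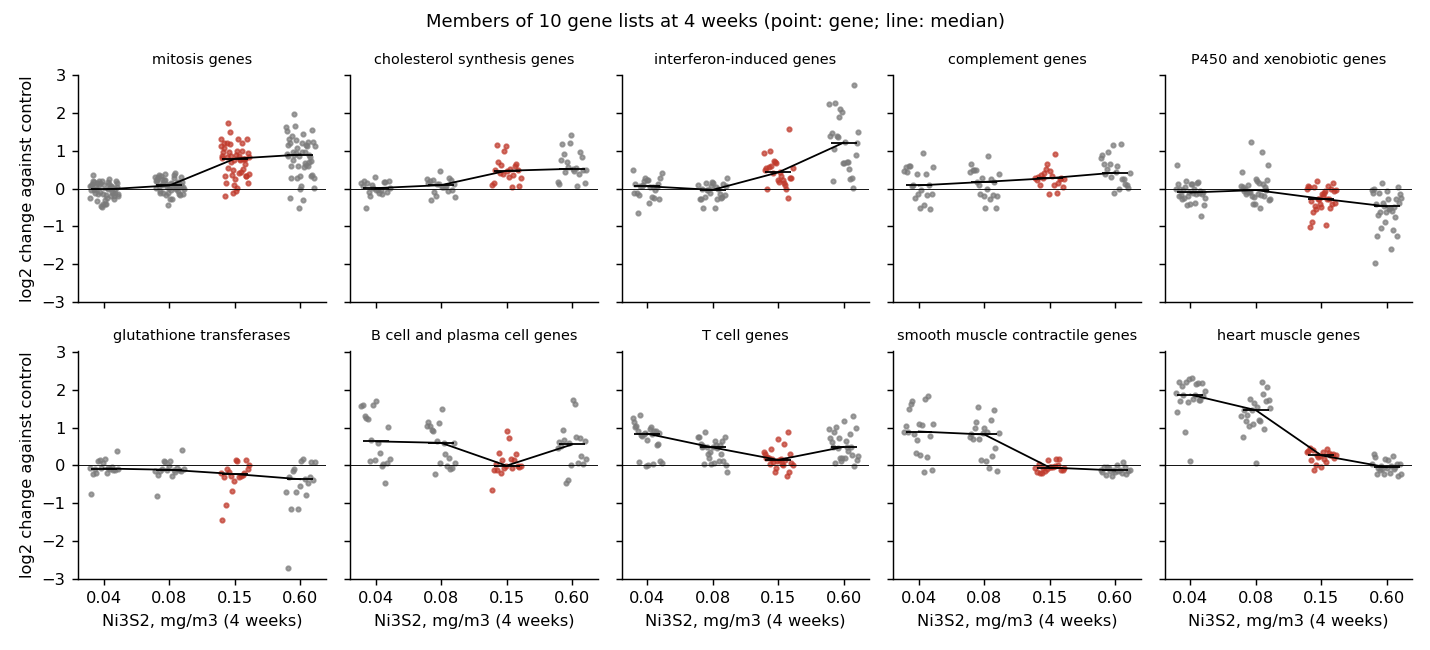
Log2 change against control after 4 weeks for the members of 10 gene lists at each Ni3S2 concentration in mg/m3; each point is a gene, lines join the medians, and red marks 0.15 mg/m3. The median of the mitosis genes goes from 0.09 at 0.08 mg/m3 to 0.80 at 0.15 mg/m3, while heart muscle genes are high at 0.04 and 0.08 mg/m3.

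At 1 week the same concentration was set against its own controls, and the changes at the 2 times were compared. The difference of changes was called in 7629 of 13438 genes (56.8%), and 67.4% of genes were called against control at 1 week. Of the 258 genes that rose at 4 weeks 175 were also called higher at 1 week (33.8% of all genes) and 32 called lower (33.7%), and of the 212 that fell 111 were called lower and 47 higher. Mitosis genes had a median change of 1.34 at 1 week and 0.80 at 4 weeks, and cholesterol synthesis genes 0.86 and 0.48. Tdh rose by 1.93 at 1 week and 3.57 at 4 weeks (difference 1.64, adjusted p = 8.56e-06). Its level in exposed lungs was also higher at 4 weeks than at 1 week, by 1.73. For Akr1c3 the changes were 0.50 and 1.70 (adjusted p of the difference = 0.000327). For other genes the controls of the times differed. Ptges was at 6.83 in controls and 7.19 in exposed lungs at 1 week, and at 4.30 and 7.35 at 4 weeks. Its difference of changes was 2.70, while exposed lungs of the 2 times differed by 0.16 (adjusted p = 0.595).

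The genes with the largest differences of changes between the times also include some that were not called at 4 weeks. Stra6, a receptor gene for retinol uptake, was at 6.81 in controls and 4.52 in exposed lungs at 1 week, and at 3.80 and 4.10 at 4 weeks. Ccl19, a chemokine gene of lymphoid tissue, was at 11.06 and 9.36 at 1 week, and at 7.52 and 8.27 at 4 weeks. Rrm2 rose by 3.23 at 1 week and 0.99 at 4 weeks, and the mitotic kinesin gene Kif20a by 2.96 and 0.86. Without any control array the contrast of exposed lungs at 4 against 1 week called 6514 genes, 1894 higher and 4620 lower, and it turned the sign of Stra6 (-0.43), Ccl19 (-1.09), Upk1a (-0.56), Rnase3 (0.068) and Serpinb10 (0.23). These are the 5 called differences, of 26 among the 39 genes compared, whose sign is not that of the contrast of exposed lungs alone. That contrast also holds any difference between the times apart from exposure, so it is not a second estimate of the difference of changes. The sign also turned for 6 genes whose difference of changes was not called: Ccno, S100a1, Saa3, Spp1, Acot1 and Prss30. For Ccno it went from 0.64 to -1.22 (adjusted p = 6.11e-05) and for S100a1 from 0.40 to -0.69 (adjusted p = 0.000112).

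Each gene was represented by 1 probe set, and 3985 genes had more. For the called genes 179 other probe sets were measured. Of these 159 had the same sign, 40 of them past the threshold, and 0 passed it in the opposite direction. For the 30 genes with the largest changes there were 6 others, all of the same sign, and 3 were called. The second probe set of Tacr1 differed by -0.05 ± 0.10 (adjusted p = 0.916), where the one reported fell by 1.06, and one of Prss30 by 0.38 (adjusted p = 0.349), where the one reported rose by 1.58. A second probe set of Ccno differed by 1.03 (adjusted p = 0.063), and one of Ccne2 differed by 0.20. Other probe sets showed little change for Ak4 (0.05), Tnf (0.06), H2ax (0.04), Nfkbiz (-0.03) and Ezh2 (0.03 and 0.17), all called higher by the one reported. The same held for Etv5 (-0.07), called lower by the one reported. It also held for a probe set of Jun (-0.09), of Klf2 (0.09) and of Cebpd (-0.02), genes likewise called lower. Other probe sets of these genes were called lower, Jun at -0.44, Klf2 at -0.88 and -0.33, and Cebpd at -0.83.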

How the data were processed

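RNA of 50 rat lungs was measured on Affymetrix arrays, 1 animal per array. The table holds log2 intensity of 31042 probe sets as the authors deposited it (2.22 to 13.8; array medians 5.25 to 5.61), made with RMA and Partek, per the submitters' processing notes; the versions, and which arrays were normalized together, were not given in the sources used here. RMA sets arrays to one distribution, which can hide a shift common to all genes. A number of 5 arrays a group limits the precision. In the main fit p-values set each change against the spread between animals within groups, estimated from all 50 arrays.

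Of the probe sets 19063 name 1 gene symbol, 572 several and 11407 none. The probe set with the highest mean over all arrays stood for each of 13438 genes. A model with 10 group means was fitted to all 50 arrays in limma 3.58.1 (R 4.3.3), with empirical Bayes moderation and Benjamini-Hochberg adjustment over all genes, and contrasts were taken for 0.15 mg/m3 against control, 0.60 against 0.15 and 0.15 against 0.08 mg/m3 at 4 weeks, and for the difference of changes between times. The steps were tested on simulated data. Alternatives used other sets of arrays, the replicate number as a block, array weights, other scalings, a filter on dim genes, an intensity trend, other probe set rules, a fold minimum and the omission of each array.

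Named genes were the 15 largest rises and 15 largest falls with groups that did not overlap, up to 6 called members and the first 2 members of each list, up to 5 genes each way that also differed at 0.60 mg/m3, and the 5 largest differences each way between times. Genes without an established name were left out. A few others are named as called members of a list. The members and the gene lists were chosen with earlier results of these data known, and Upk1a was taken out of the xenobiotic list after its value had been seen. Promoters are from RefSeq, build GRCr8.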

Additional observations from a re-analysis of the deposited data

Results flagged for a closer look

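In 24 of 452 sets of 5 arrays of named genes, the highest or lowest array stood apart from the other 4 by more than the critical share of the range (0.71). Chance marks about 1 set in 20 in this way. The control array 1 stood apart in log2 intensity for Prss30 (4.68), Gsta3 (8.50), Tacr1 (5.14), Cfi (8.58), Il1r2 (5.49), Muc5b (9.01) and Tagln (10.56). The exposed array 2 stood apart in log2 intensity for Idi1 (9.61), Bhlhe40 (7.15), Ephx1 (9.55), Sftpb (10.72) and Rbp7 (7.01). The exposed array 1 stood apart in log2 intensity for Ccne2 (4.06), Akr1b8 (8.29), Fosb (4.15) and Ezh2 (5.99). The exposed array 5 stood apart in log2 intensity for Pla2g2d (5.21) and Saa4 (3.21). The exposed array 4 stood apart in log2 intensity for Cars1 (7.58) and Cd79b (6.65). The control array 2 stood apart in log2 intensity for Spc25 (4.86) and Chek1 (4.84). The control array 3 stood apart in log2 intensity for Retnla (9.09). The exposed array 3 stood apart in log2 intensity for Cftr (6.90). 

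In 26 of 39 genes compared, the change at 4 weeks differed from the change at 1 week by the limma test of that difference. Of these, 9 were taken because this difference was largest, so their share says nothing. Of the 30 genes with the largest changes at 4 weeks 17 differed (56.7%), beside 56.8% of all genes. The change at 4 weeks minus the change at 1 week was positive for Tdh (1.64), Ptges (2.70), Fkbp5 (0.65), Ptgs2 (1.02), Akr1c3 (1.20), Cxcl10 (1.13), Upk1a (0.93), Stra6 (2.59), Zfp654 (2.50), Ccl19 (2.44) and Aspn (2.26). It was negative for Retnla (-1.26), Scin (-1.67), Gsta3 (-1.63), Azgp1 (-0.76), Pla2g2d (-1.13), Serpinb10 (-1.03), Tacr1 (-1.72), Rnase3 (-0.85), Cyp2a3 (-1.02), Fmo5 (-1.33), Hars1 (-2.88), Rrm2 (-2.24), Gzma (-2.22), Ap2b1 (-2.16) and Kif20a (-2.10). In the test without control arrays, the difference between exposed lungs of the times was not past the threshold for 11 of the 26, Retnla, Ptges, Gsta3, Fkbp5, Azgp1, Serpinb10, Rnase3, Stra6, Hars1, Gzma and Ap2b1.

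Outside the genes compared, 193 of 11979 probe sets with no symbol or several were called at 0.15 mg/m3 against control after 4 weeks, 110 higher and 83 lower. They are not named here.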

How the results depend on the processing

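The count of genes called against control (470, 258 higher and 212 lower) was 461 to 510 under the replicate block, both scalings, the filter on dim genes, the intensity trend and the other probe set rules. It moved by more than 1.5 times under these settings: 1101 (601 and 500) in a fit of the 10 arrays, 1092 (555 and 537) with the 25 arrays of 4 weeks, 1994 (938 and 1056) with array weights, whose estimation stopped before it converged, and 200 (152 and 48) with a minimum of 1.5-fold. With each array left out it was 341 to 401 (188 to 228 and 138 to 183), fewest lower calls without control array 4. For 0.60 against 0.15 mg/m3 (385, 257 and 128) the counts were 707 (403 and 304), 785 (476 and 309), 1361 (854 and 507) and 178 (113 and 65) in the same order, and 249 to 359 (157 to 241 and 92 to 130) with an array left out; centring of arrays moved the share of higher calls from 66.8% to 55%. For 0.15 against 0.08 mg/m3 (2494, 1082 and 1412) they were 4127 (1962 and 2165) with 25 arrays, 5236 (2213 and 3023) with array weights, 575 (246 and 329) with the fold minimum, and 1394 to 2975 (592 to 1290 and 802 to 1685) with an array left out. For the difference between times (7629) the alternatives gave 7219 to 9791, or 5280 with the fold minimum. The contrast of exposed lungs without the controls, chosen after seeing the data, measures another quantity and gave 1894 higher genes of 6514. Its sign was the other one for 5 of the 26 called differences among the genes compared, Ccl19 (-1.09), Rnase3 (0.068), Serpinb10 (0.23), Stra6 (-0.43) and Upk1a (-0.56), and for 6 that were not called. The cause was not tested in any of these. Of the 138 named genes called against control, 101 kept the call whichever array was left out.

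Replicate numbers are shared between groups, and same-numbered arrays correlated by 0.25, -0.03, 0.17, 0.05 and 0.11. Not all were above 0.1, and the main fit did not pair the animals. Arrays 1 and 5 correlated best with the array of the same number, and arrays 2, 3 and 4 with another. Array 1 had the lowest median intensity of its group in controls and in exposed lungs. A correlation cannot show whether same-numbered arrays were handled together, and this was not tested. With the replicate block 461, 371, 2402 and 7618 genes were called in the 4 comparisons. Depth does not apply to arrays, and dim genes have compressed changes.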

Other observations

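The serine protease gene Prss30 read 4.68, 5.86, 5.77, 5.80 and 6.03 in controls and 6.78, 7.35, 7.09, 7.42 and 7.42 in exposed lungs (1.58 ± 0.30, adjusted p = 0.000481 in limma). Ak4, an adenylate kinase gene of mitochondria, rose by 0.93 ± 0.16 (adjusted p = 0.000105), but its second probe set differed by 0.05 ± 0.07 (adjusted p = 0.864). Bhlhe40, a transcription repressor gene of the hypoxia and clock lists, rose by 0.93 ± 0.14 (adjusted p = 1.82e-05). In 28 genes of keratins and injured epithelium 2 rose, Lgals3 and Mmp7, and 0 fell (5 and 1 at an unadjusted p under 0.05). In 26 genes of coagulation and fibrinolysis 1 fell, Serpinb10, and 0 rose (4 and 2 unadjusted), and in 15 skeletal muscle genes 1 fell, Tnnt1, and 0 rose (1 and 0 unadjusted). Tissue factor, F3, which starts coagulation, differed by -0.11 ± 0.11 (adjusted p = 0.743). The Mmp7 call was lost in 8 and the Tnnt1 call in 9 of 10 fits without 1 array.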
